A study of Mus musculus with 6 samples.

Results

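The data described here compare Foxo1 knockout Treg cells that also carry an active form of Foxo1, called Foxo1AAA, with knockout cells that lack it. Treg cells are the CD4 T cells that hold immune responses in check. The comparison uses 1 array of Foxo1KO/Foxo1AAA cells and 2 arrays of Foxo1KO cells, 3 of the 6 arrays of the study, and all probe sets on them. The other 3 arrays, 2 of wild-type (WT) cells and 1 of Foxo1AAA cells with their own Foxo1, are used for reference. All cells were sorted as natural Treg cells (nTreg) from C57BL/6 mice, and both groups compared here are labelled as Foxo1 knockouts. The study asked whether expression lost or gained in the knockout is recovered in the presence of Foxo1AAA. The Cre driver, the part of Foxo1 that was deleted, the cells that express Foxo1AAA, the gates used for sorting, the age and sex of the mice, and any pooling of mice are not given in the sources used here.

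Foxo1 is a forkhead transcription factor. Akt, the kinase downstream of PI3K, phosphorylates it when the T cell receptor or growth factor receptors signal, and phosphorylated Foxo1 leaves the nucleus. The name AAA is commonly used for a form whose Akt sites are changed to alanine, so that it stays nuclear. In T cells Foxo1 is known for driving genes of homing and survival such as Il7r, Ccr7 and Klf2, and for restraining effector genes.

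With 1 array on one side there was no replicate check, and every difference below is a description of these arrays. Values are log2 signals, so 1 unit is a 2-fold difference. A gene was counted as higher or lower only if the Foxo1KO/Foxo1AAA array lay at least 2-fold above or below each of the Foxo1KO arrays. The smallest p that an exact permutation test of 1 array against 2 can give is 0.333, so no such test was made. No label says that replicate arrays came from separate mice. The Foxo1KO arrays differed from each other by 2-fold or more in 18 of 13645 genes (0.132%), and the median gene differed between them by 0.11. The array of Foxo1KO/Foxo1AAA cells correlated over all probe sets at r = 0.974 and 0.973 with the Foxo1KO arrays and at 0.994 with the Foxo1AAA array.

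Of 13645 genes, 489 (3.58%) were higher in Foxo1KO/Foxo1AAA cells and 185 (1.36%) were lower. The median difference over all genes was -0.02. The split of 489 higher to 185 lower became 378 to 333 when each array was centred on its median, and 420 to 255 when it was centred on T cell genes. Those scalings shifted the median difference to -0.19 and -0.11. Among probe sets, 1334 (2.96%) were higher and 370 (0.82%) lower. Their levels were also set beside WT. Of the 489 higher genes, 210 lay within 2-fold of both WT arrays, 253 lay above both, 24 compared differently with the WT arrays and 2 lay below both. Of the 210 genes near WT, 24 were on lists of T cell genes and 2 on lists of other cells. Of the 253 genes above WT, 17 were on T cell lists and 40 on lists of other cells. Of all 13645 genes, 311 were on T cell lists and 13520 on no list of other cells or sex chromosome genes. Of the 489 higher genes, 402 were on no list. The lists were chosen with earlier results of these data known, so these counts only describe. Of the 185 lower genes, 130 lay within 2-fold of both WT arrays. The share of all 13645 genes that lay within 2-fold of both WT arrays was not counted. The median gene on the Foxo1KO/Foxo1AAA array differed from the WT arrays by only 0.24 and 0.27. The counts near WT therefore do not measure recovery.

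**Figure D1:**
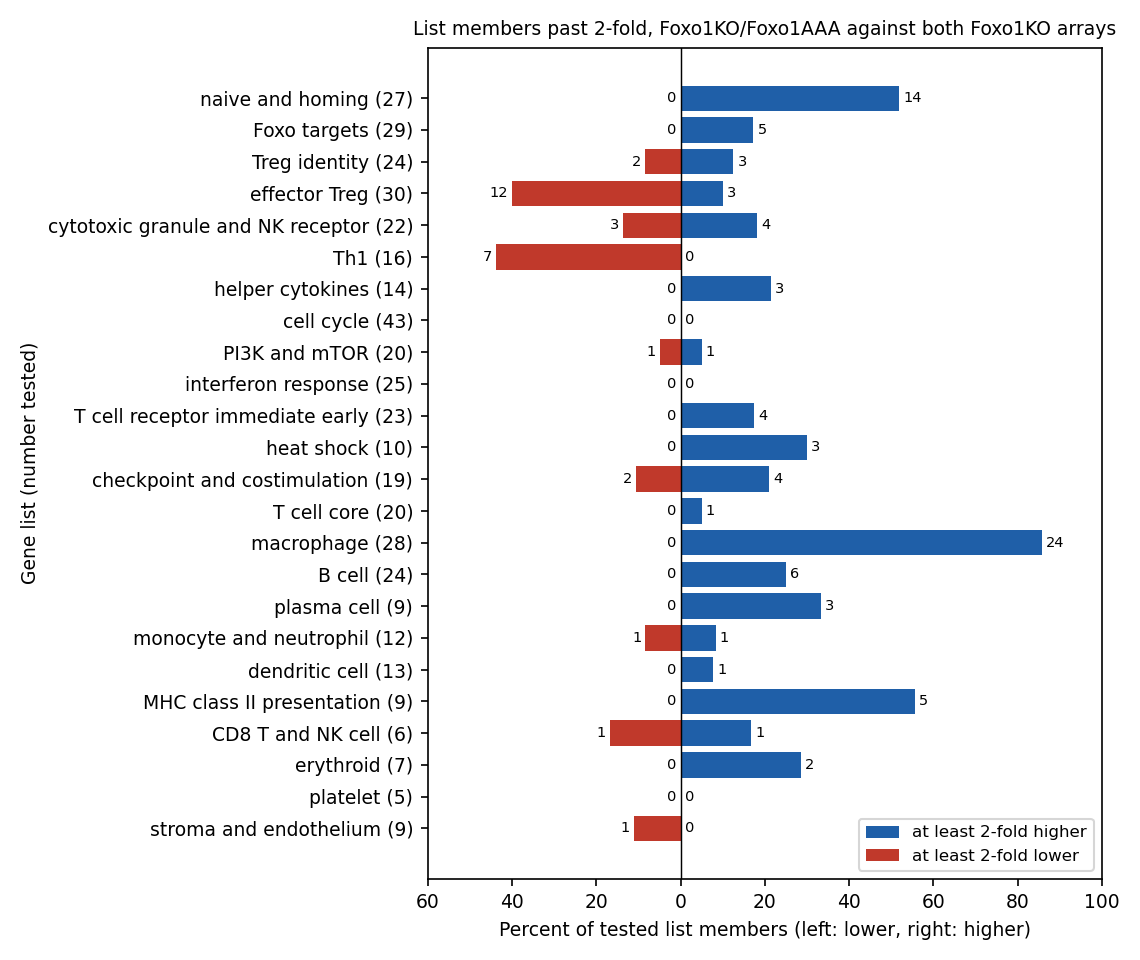
Share of the tested members of each gene list that were at least 2-fold higher (blue, right) or lower (red, left) on the Foxo1KO/Foxo1AAA array than on both Foxo1KO arrays. The number at each bar is the count of genes, and the number after each name is how many members were tested. Macrophage markers (24 of 28 higher) and naive and homing genes (14 of 27 higher) stand on the right, and effector Treg (12 of 30 lower) and Th1 genes (7 of 16 lower) on the left. The lists were chosen with earlier results of these data known.

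Sequences upstream of 4 genes that differed strongly are shown because each holds 1 match to a motif that Foxo proteins are known to bind. The motifs searched were GTAAACA, a forkhead motif, and CAAAACA, an insulin response motif, each on both strands in the 250 bases before the start site. The sequences are from RefSeq for build GRCm38.p6, written 5′ to 3′ on the strand of the gene, with the match in capitals. TGTTTTG is CAAAACA read on the other strand. Dapl1 lies on the plus strand of chromosome 2 and the window shown is chr2:59484403-59484652. The window of Bcl2l11, also on the plus strand, is chr2:128125788-128126037. A second window of Bcl2l11 in the table, chr2:128127325-128127574, holds no match. The window of Slamf6 is chr1:171917212-171917461 on the plus strand, and that of Gzmb is chr14:56262335-56262584 on the minus strand.
Dapl1: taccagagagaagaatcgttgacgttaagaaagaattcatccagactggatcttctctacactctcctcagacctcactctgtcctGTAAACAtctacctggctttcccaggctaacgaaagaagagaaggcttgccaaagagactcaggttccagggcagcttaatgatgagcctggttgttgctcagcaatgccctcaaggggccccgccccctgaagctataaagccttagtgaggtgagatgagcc
Bcl2l11: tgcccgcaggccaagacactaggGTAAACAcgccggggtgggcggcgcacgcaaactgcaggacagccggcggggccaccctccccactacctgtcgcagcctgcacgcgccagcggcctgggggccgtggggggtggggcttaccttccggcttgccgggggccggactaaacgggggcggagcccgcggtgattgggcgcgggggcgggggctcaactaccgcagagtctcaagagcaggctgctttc
Slamf6: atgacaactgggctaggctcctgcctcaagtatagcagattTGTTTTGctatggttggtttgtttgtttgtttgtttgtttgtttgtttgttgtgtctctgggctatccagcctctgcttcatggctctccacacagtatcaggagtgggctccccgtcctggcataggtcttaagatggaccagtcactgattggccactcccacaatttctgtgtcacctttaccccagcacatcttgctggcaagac
Gzmb: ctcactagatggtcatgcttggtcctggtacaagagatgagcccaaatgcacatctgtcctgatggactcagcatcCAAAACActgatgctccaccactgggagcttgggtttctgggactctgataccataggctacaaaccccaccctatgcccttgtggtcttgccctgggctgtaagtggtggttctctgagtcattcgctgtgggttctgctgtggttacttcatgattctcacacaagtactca
The match lies 164 to 158 bases before the start in Dapl1, 227 to 221 in Bcl2l11, 209 to 203 in Slamf6 and 174 to 168 in Gzmb. Of these genes 3 were higher and Gzmb was lower. The windows of Id3 and Itga4 also held 1 insulin response match each. Most other windows looked at for named genes held none, among them those of St8sia6, Nrp1, Nt5e, Il7r and Klf2. Of all 27025 genes with a promoter in the table, 3.54% hold the forkhead motif and 6.38% the insulin response motif, and of the 10969 tested genes there 2.81% and 4.64% do. Of the 170 higher genes near WT that have a promoter there, 4 (2.35%) and 11 (6.47%) hold them. Of the 191 higher genes above WT, 8 (4.19%) and 14 (7.33%) do. Of the 143 lower genes, 8 (5.59%) and 12 (8.39%) do. A match describes letters and does not show that Foxo1 binds there.

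Genes of the naive state and of homing made up the T cell list with the largest share of higher members. The count of each list is to be read against the 3.58% of all genes that were higher and the 1.36% that were lower. All lists were chosen with earlier results of these data known, so no share measures an enrichment. Of 27 naive and homing genes tested, 14 were higher, none was lower, and the median difference was 1.08, against -0.02 over all genes. Of those 14, 11 lay within 2-fold of both WT arrays. Prg4, a secreted lubricating proteoglycan, read 11.91 on the Foxo1KO/Foxo1AAA array against 5.25 and 5.10 on the Foxo1KO arrays. It was at least 86.9-fold higher, a lower bound because the knockout signal lay below the dimmest tested mean of 5.47. It also lay far above the WT arrays, at 8.46 and 8.58, and near the Foxo1AAA array at 12.14. Dapl1 read 10.87 against 6.20 and 5.46 and was at least 32.9-fold higher, with 8.06 and 8.67 in WT and 10.96 in Foxo1AAA cells. Both genes were therefore higher in both kinds of cell with Foxo1AAA than in WT cells.

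Other genes of the list lay near the WT level and not above it. St8sia6, a sialyltransferase that adds sialic acid to glycans, read 10.81 against 6.46 and 6.28 in the knockout, 21.7-fold higher. The WT arrays read 11.13 and 11.50 and the Foxo1AAA array 11.37, so the knockout alone stood apart. Id3, an inhibitor of E protein transcription factors, read 10.77 against 9.03 and 8.58, with 11.11 and 11.20 in WT. Klf3, a Krüppel-like repressor, read 12.16 against 10.81 and 10.61, just under the WT values of 12.58 and 12.48. Itga4, an integrin subunit used to enter tissues, read 10.59 against 9.32 and 8.96, with 10.96 and 11.03 in WT. Bach2, a repressor that keeps T cells from effector fates, was 2.12-fold higher, and the survival gene Bcl2 2.13-fold. For Bcl2 the difference of 1.09 became 0.95 when its 5 probe sets were averaged.

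A further group lay above both WT arrays, within 2-fold of them or just past. Slamf6, a receptor of the SLAM family on lymphocytes, read 11.58 against 8.96 and 8.98 in the knockout and 10.50 and 10.46 in WT. Actn1, which crosslinks actin, read 11.49 against 9.60 and 9.62, with 11.12 and 11.16 in WT. Il7r, the receptor for the survival cytokine IL-7, read 12.60 against 10.00 and 10.50, with 11.74 and 11.71 in WT. Ccr7, which guides T cells into lymph nodes, read 10.77 against 8.49 and 8.67, with 10.22 and 10.24 in WT. On all 4 genes the Foxo1AAA array also read above both WT arrays.

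Not every gene of this list followed. Klf2, which drives S1pr1, read 12.05 against 11.22 and 11.54, a difference of 0.67, with a WT mean of 12.06. S1pr1, the receptor for leaving lymphoid tissue, read 10.79 against 10.16 and 10.04, a difference of 0.69, with 10.68 and 10.99 in WT. Both genes lay at the WT level, and the knockout lay less than 2-fold below it. Lef1, a transcription factor of naive T cells, differed by 0.21, and the chromatin organizer Satb1 by -0.42. None of these 4 passed 2-fold. Tcf7 was not analysed here.

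**Figure D2:**
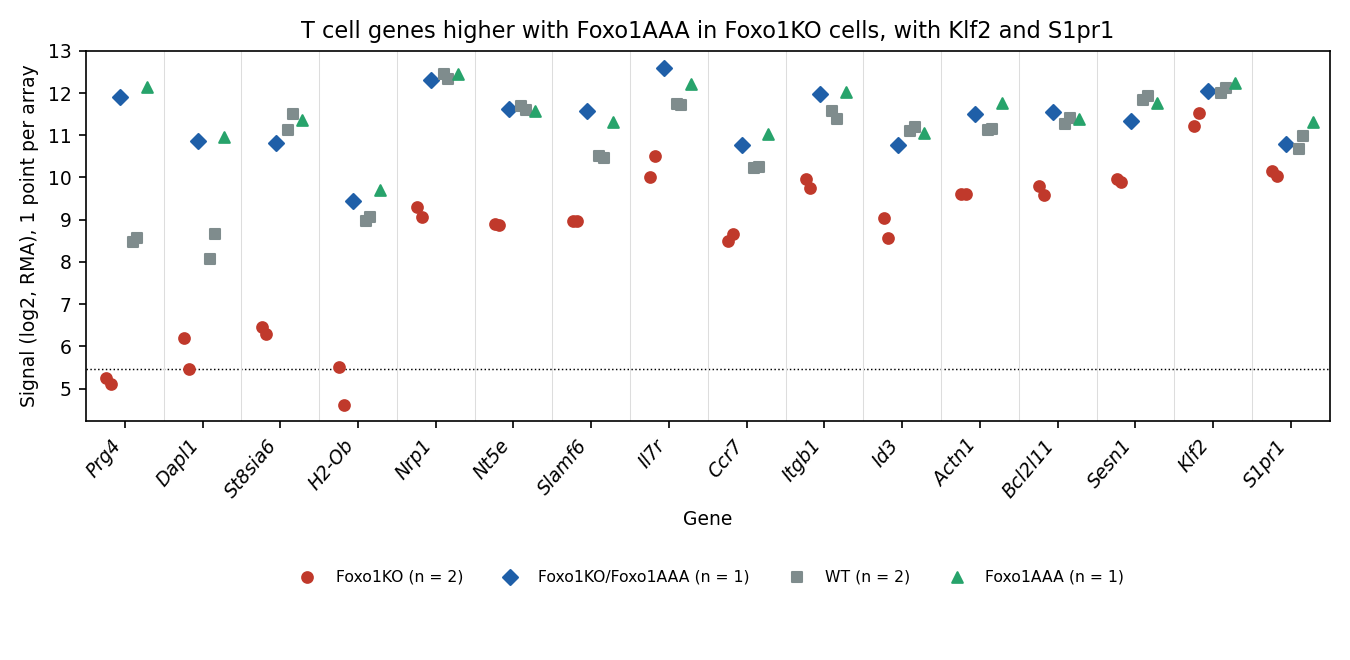
Log2 signal of 16 genes, 1 point per array, for Foxo1KO (red, n = 2), Foxo1KO/Foxo1AAA (blue, n = 1), WT (grey, n = 2) and Foxo1AAA (green, n = 1). The dotted line is the dimmest tested mean, 5.47. For 14 genes the blue point lies at least 2-fold above both red points, and St8sia6, Nrp1 and Nt5e lie near WT whereas Prg4 and Dapl1 lie above it. For Klf2 and S1pr1 the blue point lies beside the grey ones, and the red points lie less than 2-fold below.

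Among known Foxo targets outside homing, 5 of 29 tested were higher and none was lower, against 3.58% and 1.36% of all genes, with a median difference of 0.20. Cited2, a transcriptional coregulator, read 11.31 against 9.39 and 9.51 in the knockout and 10.02 and 9.91 in WT. Bcl2l11 encodes Bim, which promotes death of T cells deprived of cytokines. It read 11.54 against 9.80 and 9.58, with 11.25 and 11.41 in WT, so it was 3.61-fold above the knockout and level with WT. Sesn1, a sestrin that restrains mTORC1, read 11.33 against 9.97 and 9.89, with 11.84 and 11.92 in WT. Tsc22d3 and Gadd45a were the other higher members, and the difference of Tsc22d3, 1.78, became 0.91 with all probe sets averaged. The metabolic targets Irs2 and Insr differed by 0.45 and 0.63, and the cell cycle inhibitor Cdkn1b by -0.33, all within 2-fold.

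The probe sets of Foxo1 itself read lower, not higher, with Foxo1AAA. The one with the highest mean read 9.66 on the Foxo1KO/Foxo1AAA array, 10.87 and 10.65 on the Foxo1KO arrays, 10.71 on the Foxo1AAA array and 11.03 and 11.35 on the WT arrays. The Foxo1KO arrays thus lay within 2-fold of the WT arrays. Its difference of -1.10 fell short of the rule because it was -0.99 against 1 of the Foxo1KO arrays. All 4 probe sets read lower, by -0.47 to -1.10. The deleted part and the sequence carried by the transgene are not given, so these probe sets do not check either label. Gt(ROSA)26Sor, the transcript of a locus often used to carry transgenes, read 8.96 against 10.00 and 9.88, and the Foxo1AAA array 9.03 against 10.36 and 10.18 in WT.

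Treg identity genes differed in both directions. Of 24 tested, 3 were higher and 2 lower, with differences from -3.29 to 3.11. The median difference was -0.10, which became 0.01 without Foxo1KO replicate 2. Il2ra differed by -0.12, the inhibitory receptor Ctla4 by 0.04 and Ikzf2, which encodes Helios, by -0.34. The single probe set of Foxp3, the lineage factor, read 5.10 to 5.58 on all 6 arrays, below the filter on dim genes, and shows nothing on Foxp3. Cd4 read 9.36 and Cd3e 10.55 on the Foxo1KO/Foxo1AAA array and differed from the knockout by 0.06 and -0.09. The summed linear signal of 20 core T cell genes was 73164, against 66437 and 66925 in the knockout.

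Nrp1 and Nt5e, both surface molecules, were the members with the largest positive differences. Nrp1, a receptor found on Treg cells that arise in the thymus, read 12.30 against 9.30 and 9.07, with 12.45 and 12.34 in WT. It was 8.66-fold higher, and its 4 probe sets were all higher, by 2.62 to 4.07. Nt5e, or CD73, turns AMP into adenosine at the cell surface. It read 11.63 against 8.89 and 8.86, with 11.68 and 11.59 in WT, a 6.72-fold difference. Its difference of 2.75 became 1.17 with all probe sets averaged. For both genes the Foxo1KO/Foxo1AAA array lay beside the WT arrays, and the knockout alone was low. In the other direction, Penk, which encodes an enkephalin precursor, read 10.13 against 13.36 and 13.48. It also lay below the WT arrays, at 11.47 and 11.24, as did the Foxo1AAA array at 8.99. Itgae, the integrin subunit CD103, differed by -1.14, or by -0.95 with all probe sets averaged.

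Effector Treg and Th1 genes held most of the lower genes on the T cell lists. Of 30 tested effector Treg genes, 12 were lower and 3 higher, with a median difference of -0.74, and of 16 Th1 genes 7 were lower and none higher, with a median of -0.93. Over all genes 1.36% were lower. Both lists were among those chosen with earlier results of these data known. Ccr1, a chemokine receptor of inflamed tissue, read 5.70 against 9.56 and 9.54, 14.4-fold lower, and lay at the level of WT (5.49 and 5.44). Anxa1, a phospholipid-binding protein, read 8.03 against 11.06 and 11.44, with 7.77 and 7.02 in WT, and its difference of -3.22 became -1.71 with all probe sets averaged. Ermn, an actin-binding protein, read 5.47 against 8.94 and 9.33, with 4.83 and 4.61 in WT. These 3 genes were high in the knockout alone.

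Ccr2, a chemokine receptor of effector T cells and monocytes, went past WT. It read 9.51 against 12.57 and 12.68 in the knockout, and the WT arrays read 10.99 and 10.45. Klrg1, a receptor of terminally differentiated cells, read 10.95 against 13.13 and 13.17, 4.61-fold lower and level with WT (11.21 and 10.98). The transcription factor Arnt2 read 7.67 against 10.37 and 10.56 and stayed above WT, at 6.50 and 5.78. Its difference of -2.80 became -1.08 with all probe sets averaged. The interferon-inducible Ifitm1, Ifitm2 and Ifitm3 differed by -2.05, -2.41 and -1.53 and likewise stayed above WT. Of the broader list of interferon response genes, none of 25 was higher or lower, and the median difference was -0.19.

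The Th1 members that were lower were mostly receptors and regulators. Il18r1, a chain of the IL-18 receptor, read 10.16 against 12.15 and 12.29, below WT at 11.60 and 11.18. Il18rap, its partner chain, differed by -1.80, and Il12rb1, a chain of the IL-12 receptor, by -1.59. Tbx21 encodes T-bet, the master regulator of Th1 cells. It read 8.37 against 9.41 and 9.67, with 7.65 and 6.98 in WT, so it lay below the knockout and above both WT arrays. Eomes, Xcl1 and Havcr2 completed the 7, and Eomes came to -0.98 with all probe sets averaged. Ifng read 8.34 against 9.12 and 9.36 and did not pass 2-fold against 1 of the arrays.

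Cytotoxic granule genes differed in both directions. Of 22 tested, 3 were lower and 4 higher, with a median difference of 0.20. Gzmb, a granzyme that cleaves caspases, read 10.99 against 14.41 and 14.47, 10.99-fold lower, and was still above WT at 10.12 and 9.94. Gzma, the other major granzyme, read 10.35 against 12.73 and 12.49 but 5.92 and 5.98 in WT. Nkg7, a granule membrane protein, read 10.29 against 12.17 and 12.44, with 9.98 and 9.51 in WT. In contrast Klrd1, which encodes the NK receptor chain CD94, read 8.56 against 6.80 and 6.43, and Gzmk 8.50 against 7.47 and 6.88. The chemokine Ccl3 and the protease Ctsc were the other higher members, and Ctsc came to 0.90 with all probe sets averaged. WT read 5.16 and 5.60 for Klrd1 and 6.32 and 6.52 for Gzmk, so these genes lay farther from WT with Foxo1AAA than without.

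**Figure D3:**
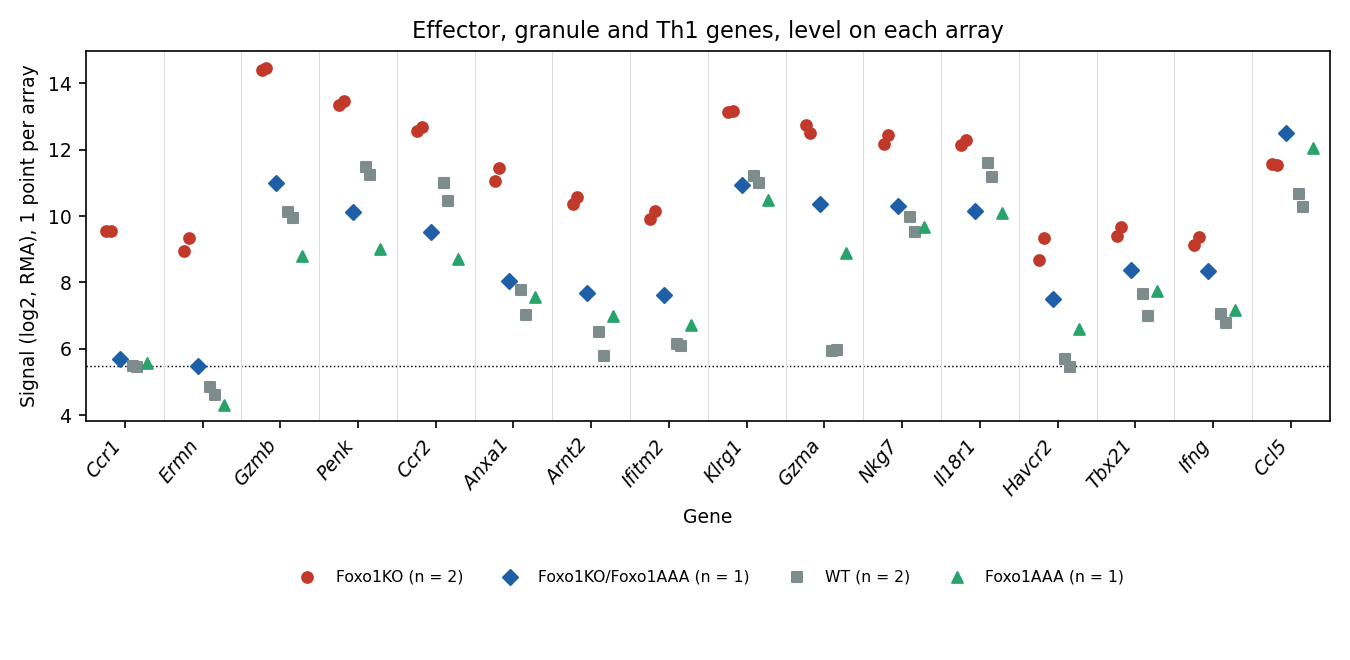
Log2 signal of 16 effector, granule and Th1 genes, 1 point per array, with symbols as in the legend and the dimmest tested mean, 5.47, as a dotted line. The blue Foxo1KO/Foxo1AAA point lies below both red Foxo1KO points for every gene shown except Ccl5. It meets the grey WT points for Ccr1 and Klrg1, lies between red and grey for Gzma and Arnt2, and lies below grey for Penk, Ccr2 and Il18r1.

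Some effector Treg and helper cytokine genes were higher. Irf4 and Itgb1 were among the 3 higher effector Treg genes, against 12 lower of 30. Tnfsf8, Il2 and Il21 were the 3 higher of 14 helper cytokine genes. None of those 14 was lower, and their median difference was 0.02. Over all genes 3.58% were higher. Irf4, a transcription factor induced by T cell receptor signals, read 10.82 against 8.84 and 9.11, with 9.73 and 9.70 in WT. With all probe sets averaged its difference of 1.85 became 0.91. Itgb1, the integrin chain paired with Itga4, read 11.98 against 9.97 and 9.74, with 11.56 and 11.39 in WT, and its difference of 2.12 became 1.21 in the same way. Tnfsf8, the CD30 ligand, read 10.22 against 7.76 and 7.31, with 8.16 and 8.42 in WT. Il2, the T cell growth factor, read 7.47 against 5.55 and 4.99 and was at least 3.89-fold higher. Il21, a cytokine that helps B cells, read 6.97 against 5.90 and 5.41, and its difference of 1.32 became 0.32 with all probe sets averaged.

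Checkpoint and costimulatory genes differed both ways, with 4 of 19 higher and 2 lower. Lag3, an inhibitory receptor for MHC class II, read 9.16 against 6.74 and 6.68, with 7.02 and 6.95 in WT and 9.11 in Foxo1AAA cells. Btla, an inhibitory receptor, read 12.30 against 10.79 and 10.84, with 12.10 and 12.13 in WT. Cd28, the main costimulatory receptor, was 2.56-fold higher and Cd200 3.27-fold, while Cd160 was 3.66-fold lower and Havcr2, or TIM-3, 2.84-fold lower. Btla, Cd200 and Cd28 lay within 2-fold of WT, and Lag3 was high on both arrays with Foxo1AAA.

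Of 23 genes that T cell receptor signals switch on first, 4 were higher, with a median difference of 0.34, and of 10 heat shock genes 3 were higher, with a median of 0.47. Jun, an AP-1 subunit, read 8.87 against 6.56 and 6.64 and Btg2 11.26 against 9.63 and 9.92. The chaperone gene Hspa1b read 8.53 against 6.60 and 6.43, with 7.01 and 6.75 in WT and 9.14 in Foxo1AAA cells. Jun and Hspa1b were high on both arrays with Foxo1AAA and low on the other 4. Lag3, Tnfsf8 and Klrd1 were also highest on both arrays with Foxo1AAA, as were the macrophage markers described below. Which cells these transcripts came from was not tested.

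The PI3K and mTOR pathway genes were mostly level, with 1 of 20 higher and 1 lower. Pik3r5, a regulatory subunit of PI3K gamma, read 8.91 against 6.80 and 6.56, and Castor1, an arginine sensor of mTORC1, 8.93 against 10.72 and 10.68. Cell cycle genes did not pass the rule in either direction, 0 of 43, and had a median difference of 0.20. In cells that kept Foxo1, 25 of the 43 were higher with Foxo1AAA than in WT, with a median difference of 1.26. Of all genes, 2.74% were higher in that comparison. The median level of the list was 10.82 with Foxo1AAA in the knockout, 10.79 on both knockout arrays, 10.62 in Foxo1AAA cells and 9.18 and 8.94 in WT. Both arrays with Foxo1AAA and both knockout arrays thus lay above WT. The largest difference from the knockout was that of the ubiquitin-conjugating enzyme Ube2c, 1.04.

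Markers of macrophages were the list with the largest share of higher members among the 25. Of 28 tested, 24 were higher, none was lower, and the median difference was 3.16. All 24 lay above both WT arrays. All 24 were also higher in Foxo1AAA than in WT cells, where 2.74% of all genes were higher, with a median of 3.13 over the list. Vcam1, an adhesion molecule of red pulp macrophages and stroma, read 11.79 against 6.90 and 6.07 and was 39.6-fold higher, a difference of 5.31 that became 3.82 with all probe sets averaged. The iron exporter Slc40a1 read 11.63 against 7.31 and 6.88, the mannose receptor Mrc1 10.45 against 6.20 and 5.47, and the complement gene C1qb 11.32 against 7.09 and 6.27. Csf1r, the receptor for macrophage growth factor, read 12.38 against 9.12 and 8.52. With all probe sets averaged the differences of Slc40a1 and Csf1r were 3.83 and 2.62, in place of 4.53 and 3.56, and the median of the list was 2.99. Spic, the transcription factor of red pulp macrophages, was at least 7.32-fold higher.

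The exceptions were Fcgr1, Siglec1, Clec4f and Gpnmb, which lay within 2-fold of the knockout, and Vsig4, which was below the filter. The summed linear signal of the list was 33384 on the Foxo1KO/Foxo1AAA array, 3989 and 3083 on the Foxo1KO arrays, 27853 on the Foxo1AAA array and 2594 and 3359 on the WT arrays. It was 9.44 times the knockout mean, whereas the sum over core T cell genes was 1.10 times. In bulk RNA more cells of a type and more RNA per cell cannot be told apart.

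B cell markers were higher in part. Of 24 tested, 6 were higher and none lower, with a median difference of 0.48. Fcmr, the IgM receptor, read 9.51 against 7.16 and 6.34, and Ly86 10.46 against 8.38 and 7.37. Of the defining genes, Cd79b was 2.16-fold higher. Ms4a1, or CD20, read 9.06 against 8.32 and 6.25, so it lay above both knockout arrays but past 2-fold for only 1. Cd79a was dim, at 6.53 against 5.70 and 5.60, and did not pass 2-fold. It read 6.88 on the Foxo1AAA array against 5.53 and 5.81 in WT. Pax5 was level at 6.65 against 6.93 and 6.63. The summed signal was 17165 against 8948 and 6717, and 19302 on the Foxo1AAA array against 9128 and 10215 in WT. Plasma cell genes were higher in 3 of 9, among them the joining chain gene Jchain at 10.40 against 9.24 and 8.18. For Jchain the WT arrays read 5.35 and 5.62, so the knockout arrays also lay far above WT. The summed signal of the plasma cell list was not higher, at 8060 against 8406 and 8621.

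Genes of MHC class II presentation included 5 higher members of 9 tested. H2-Aa, the alpha chain of I-A, read 12.45 against 10.89 and 9.63, and the Foxo1AAA array 12.28 against 8.40 and 8.90 in WT. H2-Ab1, H2-Eb1 and Cd74 were likewise higher on both arrays with Foxo1AAA than on the other 4. Foxo1KO replicate 1 read higher than replicate 2 for H2-Aa, Ms4a1 and Bank1. H2-Ob, a chain of the peptide loading modulator H2-O, showed another order. It read 9.45 against 5.50 and 4.62, at least 15.6-fold higher, but 8.96 and 9.06 in WT, so it was low in the knockout alone.

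Other cell lists held few higher genes, with Lyz1 of 12 monocyte and neutrophil genes, Cd24a of 13 dendritic cell genes, and Car2 and Slc4a1 of 7 erythroid genes. Tyrobp, an adaptor found also on the macrophage list, was the member of 6 CD8 T and NK cell genes. None of 5 platelet genes and none of 9 stromal and endothelial genes was higher. The lower members were Ccr2 of the monocyte list, Eomes of the CD8 T and NK cell list and the collagen gene Col1a2 of the stromal list. With all probe sets averaged Lyz1 came to 1.15 and Col1a2 to -0.50. The part of other cells in the T cell gene differences was not tested.

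**Figure D4:**
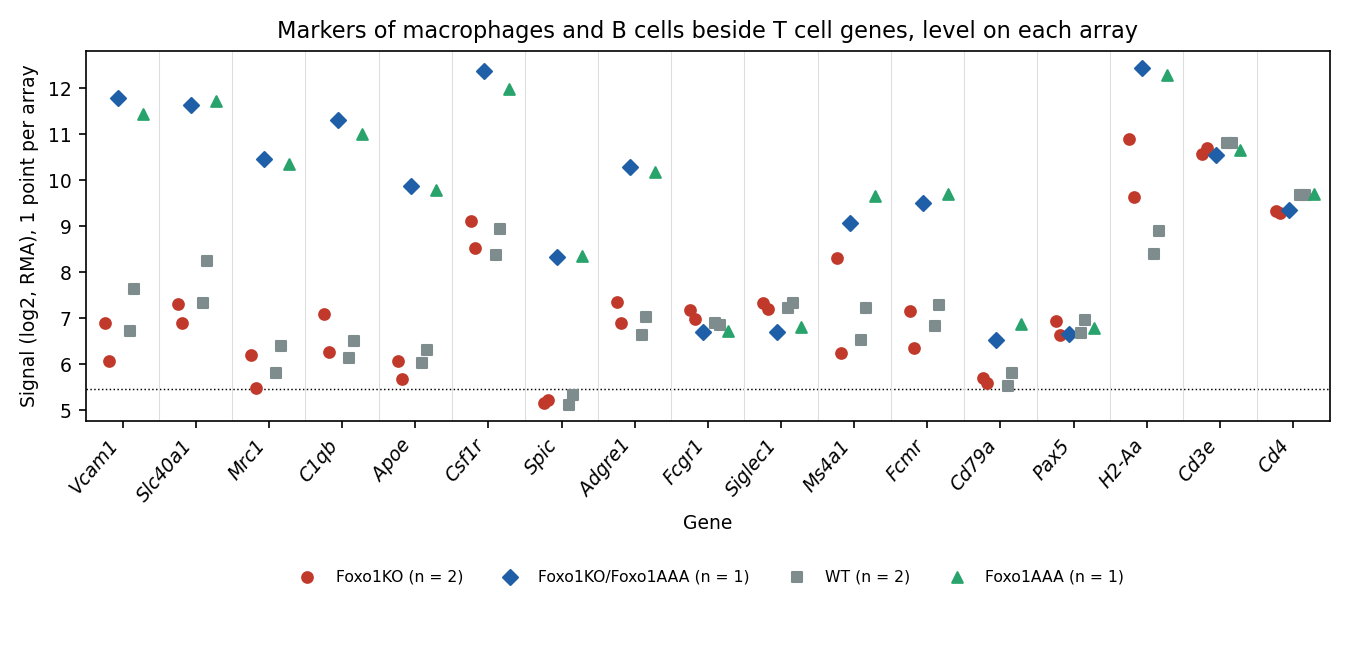
Log2 signal of markers of macrophages (Vcam1 to Siglec1) and B cells (Ms4a1 to Pax5), the MHC class II gene H2-Aa and the T cell genes Cd3e and Cd4, 1 point per array, with the dimmest tested mean, 5.47, as a dotted line. For Vcam1 to Adgre1 the arrays with Foxo1AAA (blue and green) lie above all 4 others, while Fcgr1, Siglec1, Pax5, Cd3e and Cd4 show no such gap.

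The genes with the largest differences outside the lists differed in their WT level. Gja1, the gap junction protein connexin 43, read 10.84 against 4.88 and 4.52 and was at least 41.4-fold higher. The WT arrays read 4.54 and 4.72 and the Foxo1AAA array 9.86. Atp6v0d2, a subunit of the vacuolar proton pump, read 10.04 on the Foxo1KO/Foxo1AAA array and 9.73 on the Foxo1AAA array. It was at least 23.7-fold higher, with knockout and WT signals below the dimmest tested mean. Adgre4, an adhesion receptor related to the macrophage marker Adgre1, was at least 18.7-fold higher, also with low WT signal. Ndnf, a secreted protein, read 10.29 against 6.12 and 6.36, with 6.19 and 6.38 in WT. With all probe sets averaged the differences of Gja1, Adgre4 and Ndnf were 4.21, 4.03 and 2.57. These 4 genes were high on both arrays with Foxo1AAA and low on the other 4, as were the macrophage markers.

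Cyria, Ddr1, Bambi-ps1 and Myo6 had intermediate WT levels. Myo6, a motor protein that walks to the minus end of actin, read 10.53 against 7.06 and 6.75, with 8.72 and 8.91 in WT and 10.20 in Foxo1AAA cells. Ddr1, a collagen receptor, read 10.01 against 6.51 and 5.89, with 8.35 and 8.09 in WT. With all probe sets averaged the difference of Ddr1, 3.81, became 1.15, that of Myo6 2.28 and that of Cyria 2.21. All 4 genes were lowest in the knockout and highest with Foxo1AAA, as Prg4 and Dapl1 were.

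The genes with the largest negative differences outside the lists were high in the knockout alone. Jag1, a Notch ligand, read 6.08 against 8.86 and 8.96, with 6.19 and 5.77 in WT. Jdp2, a repressor of AP-1, read 6.94 against 9.87 and 10.04, with 7.17 and 7.04 in WT. Ctla2a and Ctla2b, related to the propeptides of cathepsins, read 8.31 and 6.67, against 11.37 and 11.73 and against 9.51 and 9.64. They are similar genes, and near-identical sequence could be shared between their probes. The uncharacterized gene 1500009L16Rik was 9.52-fold lower. The actin-severing protein gene Scin was at least 5.70-fold lower, from 7.67 and 8.29 to a signal below the dimmest tested mean. For Jag1 and Jdp2 the differences of -2.83 and -3.02 became -1.47 and -1.69 with all probe sets averaged, and that of 1500009L16Rik became -2.49.

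Foxo1AAA in cells that kept Foxo1 gave a comparison with no array in common. Against both WT arrays, 374 genes (2.74%) were higher there and 50 (0.366%) lower. The genes higher in both comparisons numbered 214, which is 43.8% of the 489 and 57.2% of the 374. Of these 214, 207 lay above both WT arrays on the Foxo1KO/Foxo1AAA array, and 4 lay within 2-fold of both. Both arrays with Foxo1AAA also shared high macrophage markers and a low signal of Xist, described below. The part of these in the overlap was not tested. Genes lower in both numbered 22, or 11.9% of the 185 and 44.0% of the 50. Without the lists of other cells and the sex chromosome genes, 174 genes were higher in both, 39.0% of 446 and 53.2% of 327.

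**Figure D5:**
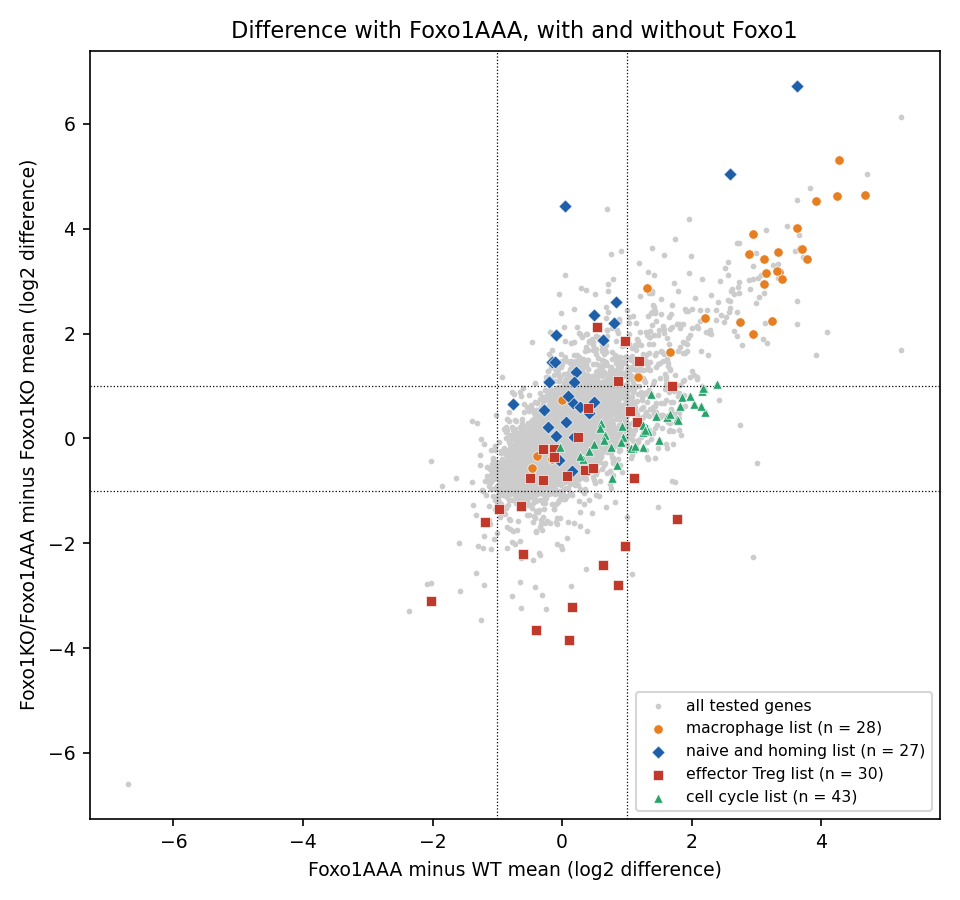
Each point is 1 of 13645 genes, with the log2 difference between Foxo1AAA and the WT mean on the horizontal axis and between Foxo1KO/Foxo1AAA and the Foxo1KO mean on the vertical axis. Dotted lines mark 2-fold. Macrophage markers (orange) lie at the upper right, cell cycle genes (green) lie to the right near 0 on the vertical axis, most naive and homing genes (blue) lie above 0 in the middle, and the lowest effector Treg genes (red) lie below it.

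The arrays also differed in sex chromosome transcripts. Xist, made from the inactive X, read 6.27 against 13.14 and 12.59 in the knockout, 6.04 in Foxo1AAA cells, and 13.43 and 12.03 in WT. The Y chromosome gene Eif2s3y read 10.56 against 4.05 and 9.91, 10.59 in Foxo1AAA cells, and 3.91 and 10.09 in WT. Both arrays with Foxo1AAA were thus low for Xist and high for the Y gene, while Foxo1KO replicate 2 and WT replicate 2 were high for both. The presence of Foxo1AAA and a low Xist signal cannot be told apart in these arrays.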

How the data were processed

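Per the labels' protocols, RNA of the sorted cells came from a miRNeasy extraction, and 2 ug of it were turned into biotinylated cRNA. The deposited values were log2 signals of 45101 probe sets, which the authors made with RMA; the submitters' processing notes name R 2.15 and limma 3.12.1. RMA gives arrays nearly the same distribution, which hides a shift of most genes, and flattens dim and saturated signals. Scanner files were not used here. Of the probe sets, 34958 were listed with 1 gene, 932 with several and 9211 were not listed in the platform annotation. The probe set with the highest mean stood for each of 18194 genes, and the lowest 25% were left out, leaving 13645. A fold with a side below 5.47 was computed against that floor and is a lower bound.

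Genes were counted by a 2-fold rule against each Foxo1KO array, with pandas 2.3.3 and Python 3.11.15. Alternatives were other folds, filters and scalings, the mean of probe sets, leaving out each replicate, and limma 3.58.1 in R 4.3.3 with the spread of the replicated groups, tested on simulated data. Named genes were the 12 highest and 12 lowest with both sides above the floor, the 6 largest bounds in each direction, up to 5 members of each list in each direction, and a set of known genes. Some further genes are named as examples chosen after their values were seen. The members and the 25 lists were chosen with earlier results of these data known.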

Additional observations from a re-analysis of the deposited data

Results flagged for a closer look

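For 3 genes the arrays with Foxo1AAA differed in opposite directions in Foxo1KO cells and in cells that keep Foxo1, and the difference was not tested. Gzma was lower in Foxo1KO/Foxo1AAA than in the Foxo1KO mean by -2.26 and higher in Foxo1AAA than in the WT mean by 2.95. Its levels with Foxo1AAA were 10.35 in the knockout and 8.90 in cells that keep Foxo1, between the Foxo1KO arrays at 12.73 and 12.49 and WT at 5.92 and 5.98. Ifitm3, an interferon-inducible membrane protein, gave -1.53 and 1.77 in the same order. Slc15a3, a lysosomal peptide transporter, gave -1.32 and 1.48. All 3 genes had the same order of arrays, with the knockout highest and WT lowest.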

How the results depend on the processing

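The lone Foxo1KO/Foxo1AAA array limits every result, and its own spread is unknown. At 1.5-fold, 1240 genes were higher and 941 lower, with 523 higher and 242 lower also with Foxo1AAA in cells that keep Foxo1. At 4-fold these were 147, 32, 68 and 2. Probe sets numbered 3544 higher and 2425 lower at 1.5-fold, and 300 and 59 at 4-fold. With the lowest 50% left out, 120 genes were lower and 126 higher in both comparisons. With each array centred on its median, 333 were lower and 47 lower in both, and with the mean of all probe sets 11 were lower in both. With limma and the pooled spread, 2670 genes were higher and 2760 lower at an adjusted p under 0.05, with the lone array assumed to vary like the replicated groups. Whether the genes counted by the 2-fold rule pass it is no separate check, because their fold on the same arrays picked them. Leaving out 1 replicate at a time gave 561 to 582 higher and 235 to 256 lower genes, 221 to 234 higher in both, 22 to 41 lower in both (41 without WT replicate 2), 1577 to 1704 higher and 506 to 583 lower probe sets (583 without Foxo1KO replicate 1). Of 103 named genes past the fold, 0 reversed over 515 alternatives and 13 came under 2-fold in at least 1, among them Ighm (0.63) and Fosl2 (0.23) with the mean of probe sets. Leaving out a replicate could not reverse a gene, because its differences from both Foxo1KO arrays had the same sign. The scalings shifted all genes alike, by far less than 2-fold. Only the mean of probe sets could therefore reverse a gene. Counts in lists without 1 Foxo1KO replicate were chosen after seeing the data. Without replicate 1, 3 cell cycle and 3 dendritic cell genes were higher, and 1 Foxo target, 2 PI3K and mTOR, 1 interferon and 2 monocyte and neutrophil genes lower. Without replicate 2, 1 B cell gene was lower and 3 sex chromosome genes higher. No paired analysis was possible because no label pairs the lone array with a Foxo1KO array.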
